A study of Mus musculus with 24 samples.

Results

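The 9 genes described here, Glul, Slc1a2, Rhbg, Axin2, Lgr5, Rnf43, Znrf3, Tbx3 and Lect2, are liver genes known to depend on Wnt signalling near the central vein. They were taken by gene name from the array's design, with every probe of each gene, and are 9 of the 17215 genes tested. They have 18 probes among the 56605 probes that are not controls, and 16 of these 18 were kept after the filter on dim signals, at least 1 for each gene. The arrays, Agilent 1-colour designs with Cy3, read RNA from the livers of 8-week-old C57Bl/6J males, each killed at ZT16 (the 16th hour counted from lights on). The groups were 6 mice lacking Ppara in the liver (LKO) that had been fasted for 24 h, 6 LKO mice fed ad libitum, 5 wild-type mice (WT) fasted for 24 h and 5 WT mice fed ad libitum. All mice ate the same chow, and the labels name neither the promoter that drove the deletion nor the deleted part of Ppara. The labels list 24 arrays from 22 animals, since 1 fasted and 1 fed WT animal were each hybridised on 2 arrays, whereas the series text counts 24 mice.

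Hepatocytes differ along the lobule, from the portal vein to the central vein. Endothelial cells of the central vein release Wnt ligands and R-spondin 3, which keep beta-catenin active in the neighbouring hepatocytes and so maintain the pericentral programme, including the making of glutamine from ammonia. In this pathway Frizzled receptors and the coreceptors Lrp5 and Lrp6 bind the ligands, R-spondins act through Lgr4 and Lgr5, and the ubiquitin ligases Rnf43 and Znrf3 remove Frizzled from the cell surface. These arrays read RNA of whole liver, so fewer cells of a type and less RNA per cell cannot be told apart, and no position in the lobule was measured.

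Levels are log2 processed signals minus the array's 75th percentile, and differences are on the log2 scale too, each with a standard error (SE) from limma's moderated test over all genes. A gene was called higher or lower at a Benjamini-Hochberg adjusted p below 0.05. Levels of different probes are not compared with each other.

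The array reads each gene through probes of 60 bases. The following 3 are shown because the Glul pair gave other fasting differences in LKO than the brightest Glul probe did, and because the Slc1a2 probe is the only one of its gene that was kept. The first Glul probe lies on chromosome 1 at chr1:155755109-155755168, the other at chr1:155751765-155751824 and the Slc1a2 probe on chromosome 2 at chr2:102617706-102617765, all on the plus strand of mouse build mm9, as the array files give them. Exon annotation of that build was not used here.
Glul probe A_66_P134479: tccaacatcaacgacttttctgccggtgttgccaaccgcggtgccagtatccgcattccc
Glul probe A_52_P143866: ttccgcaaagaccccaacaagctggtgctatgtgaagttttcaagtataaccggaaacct
Slc1a2 probe A_52_P168496: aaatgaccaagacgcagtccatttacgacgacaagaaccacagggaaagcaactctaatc

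Promoter windows, the 250 bases before a gene's start, came from RefSeq in build GRCm38.p6, and 5 of the 9 genes (Glul, Slc1a2, Axin2, Lect2 and Rnf43) matched an entry. Matches to CTTTGAA or to CTTTGAT, and likewise to CTTTGTA or to CTTTGTT, letters of the kind bound by the T cell factors that partner beta-catenin, were searched on both strands. Of the 5 genes, Slc1a2 and Lect2 held 1 match each, and Glul, Axin2 and Rnf43 had none in these windows. At least 1 match was present in 14.8% of all 32851 windows, and in any window of 16.8% of the 27025 genes. The windows of both genes with a match are shown, with that of Glul for comparison, and capitals mark the match, which is CTTTGAT on the opposite strand. It runs from base -207 to base -201 in Slc1a2 (chr2:102706188-102706437, plus strand) and from base -32 to base -26 in Lect2 (chr13:56548539-56548788, minus strand), and the Glul window is chr1:153899679-153899928 on the plus strand.
Slc1a2 promoter: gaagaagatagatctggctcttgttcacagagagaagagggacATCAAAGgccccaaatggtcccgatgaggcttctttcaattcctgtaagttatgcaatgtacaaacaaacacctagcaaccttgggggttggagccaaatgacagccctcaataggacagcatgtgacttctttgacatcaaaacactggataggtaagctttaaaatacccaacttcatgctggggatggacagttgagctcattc
Lect2 promoter: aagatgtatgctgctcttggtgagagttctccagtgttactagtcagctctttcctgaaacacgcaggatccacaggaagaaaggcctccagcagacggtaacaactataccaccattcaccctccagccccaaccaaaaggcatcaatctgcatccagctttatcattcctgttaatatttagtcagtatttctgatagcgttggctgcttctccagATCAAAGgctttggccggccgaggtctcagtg
Glul promoter: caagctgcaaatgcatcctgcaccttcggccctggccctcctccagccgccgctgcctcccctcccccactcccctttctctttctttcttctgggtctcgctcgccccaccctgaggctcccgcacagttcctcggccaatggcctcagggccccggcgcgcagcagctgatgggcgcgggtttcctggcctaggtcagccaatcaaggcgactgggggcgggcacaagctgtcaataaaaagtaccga

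The 75th percentile of the arrays ranged from 309.7 to 412.6 intensity units, and 50.03% to 58.8% of probes were well above background. Ppara, read by 2 probes on chromosome 15 (mm9, chr15:85632110-85632169 and chr15:85637193-85637252), differed by -0.88 (SE 0.14, adjusted p = 4.6e-05) in fasted LKO against fasted WT and by -0.67 (SE 0.14, adjusted p = 0.00609) in fed LKO against fed WT at its brighter probe, in the direction of the labels. Whether either probe lies in the deleted stretch is not given, and a probe that lies elsewhere is no check of the deletion. The mean level of 8 hepatocyte markers, such as Alb and Ttr, was 8.87 to 9.01 in fasted LKO, 8.69 to 8.84 in fed LKO, 8.93 to 8.97 in fasted WT and 8.59 to 8.78 in fed WT, so that every fasted animal lay above every fed animal of its genotype. That of 6 kept lymphocyte and neutrophil markers was -1.89 to -1.41 in fasted LKO, -1.34 to -0.25 in fed LKO, -2.18 to -1.60 in fasted WT and -1.39 to -0.94 in fed WT, lower in every fasted animal than in any fed animal of its genotype. Of the hepatocyte markers 4 rose and 1 fell with fasting in LKO and 3 rose and 1 fell in WT, and of the lymphocyte and neutrophil markers 3 fell in each genotype. Their part in the members' fasting calls was not tested. Fed LKO replicate 3 stood apart. The mean absolute distance of its genes from the rest of its group was 0.345, against 0.165 to 0.237 for the other 21 animals, and the lymphocyte and neutrophil level of -0.25, the highest, was its own. The members' differences that rest on fed LKO mice, and the counts of the gene lists with fasting in LKO, are therefore also given without it. Each of the 3 slides held 2 arrays of every group, and all 15 calls made for the 9 genes had the same sign on 3 of 3 slides.

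With the fast the calls among the 9 genes did not go in 1 direction, and Tbx3 was called in neither genotype. In fasted against fed LKO, 3 of the 9 genes rose (Slc1a2, Axin2 and Znrf3) and 2 fell (Rhbg and Lgr5), while 49.7% of all genes were called, 23% higher and 26.7% lower. In fasted against fed WT, Glul, Rhbg, Lgr5, Rnf43 and Lect2 fell and no member was called higher by limma, with 1 higher at an unadjusted p below 0.05 (Znrf3). There 44.4% of all genes were called, 23.1% higher and 21.2% lower. This split of 3983 higher to 3658 lower became 3797 to 3940 after quantile normalization. The median difference of the 9 genes was -0.09 in LKO and -0.37 in WT, beside -0.04 and 0.01 over all genes. Without fed LKO replicate 3, Glul was also called lower, so that 3 rose and 3 fell with fasting in LKO, and the median of the 9 genes was -0.22. In fasted LKO against fasted WT, Slc1a2, Axin2, Znrf3 and Lect2 were higher and no member was lower, at the adjusted or at the unadjusted threshold. In that comparison 37.9% of all genes were called, 16.5% higher and 21.4% lower. This split of 2843 higher to 3676 lower became 3408 to 3206 after quantile normalization. In fed LKO against fed WT, limma called 0 of the 9 genes, and 0 passed an unadjusted p below 0.05, while 4.02% of all genes were called, 1.77% higher and 2.25% lower. Without fed LKO replicate 3 the 9 fed differences ranged from -0.33 to 0.35, and limma called 0 of them, with Lect2 (0.20) and Rhbg (0.35) higher at an unadjusted p below 0.05. The fasting change differed between LKO and WT for 1 member, Lect2, where 18.6% of all genes were called. That term was higher in LKO for 7.5% and lower for 11.1% of all genes, a split of 1291 higher to 1909 lower that became 1645 to 1574 after quantile normalization. The shares of members called in the fasting comparisons are near those of all genes, and the fasted comparisons share animals with the genotype comparisons, so the calls are not independent of each other.

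**Figure D1:**
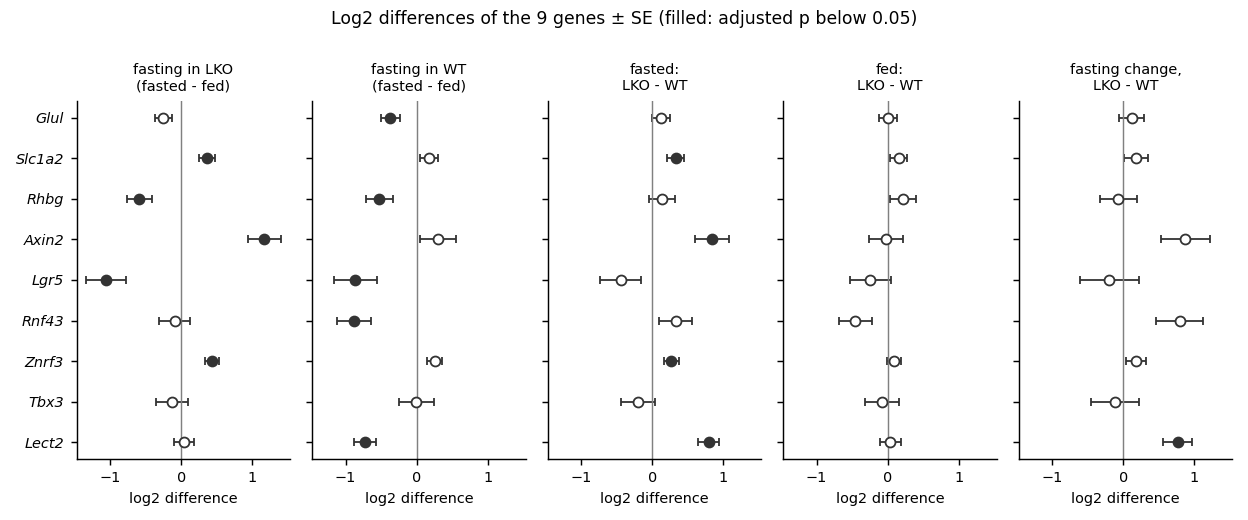
Log2 differences (x axis) with SE bars for the 9 genes (rows) in 5 comparisons, filled where the adjusted p was below 0.05; the last panel is the fasting change in LKO minus that in WT. Filled points lie on both sides of 0 with fasting in LKO, only below 0 with fasting in WT and only above 0 in fasted LKO against fasted WT, and none is filled in the fed comparison.

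Glul encodes glutamine synthetase, which joins ammonia to glutamate in the hepatocytes next to the central vein. Its level in fasted LKO ranged from 5.88 to 6.40 (median 6.15), against 5.76 to 6.62 (median 6.50) in fed LKO. It was 6.05, 5.80, 6.06, 5.92 and 6.28 in fasted WT, against 6.52, 6.38, 6.30, 6.37 and 6.39 in fed WT. Every fasted WT animal lay below every fed WT animal, whereas in LKO the groups overlapped through fed LKO replicate 3, the lowest of all 22 animals. Glul fell with fasting in WT by 0.37 (SE 0.13, adjusted p = 0.0243), a 1.29-fold lower signal. In LKO the difference was -0.25 (SE 0.12, adjusted p = 0.0858). Without fed LKO replicate 3 it was -0.37 (adjusted p = 0.00071), a call, and without fasted LKO replicate 3 it was -0.30 (adjusted p = 0.0469). The call in WT was lost without fasted WT replicate 2, fasted WT replicate 4 or fed WT replicate 1, with differences of -0.34 to -0.31 and adjusted p = 0.054 to 0.0694. The change in LKO minus that in WT was 0.12 (SE 0.17, adjusted p = 0.695), and -0.00552 without fed LKO replicate 3.

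Glul was read by 3 probes, and they differed in LKO. Taken singly, 44% of all kept probes were called with fasting in LKO and 39% in WT. With fasting in WT the other pair read -0.26 and -0.25, the same direction as the brightest probe, neither of them called. With fasting in LKO they read 0.09 (A_66_P134479) and 0.29 (A_52_P143866), against -0.25 at the brightest probe, and none of the 3 was called. Without fed LKO replicate 3 these differences were -0.03 and 0.05, against -0.37 at the brightest probe. The dimmest of the 3 read 2.68 to 3.05 (median 2.80) in fasted LKO and 1.36 to 2.84 (median 2.77) in fed LKO, where the value of 1.36 is that of replicate 3 and the other 5 lie between 2.72 and 2.84. At all 3 probes fed LKO replicate 3 was the lowest of its group.

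Slc1a2 encodes a glutamate transporter of the plasma membrane, which in liver brings glutamate into pericentral hepatocytes. Its level ranged from 3.78 to 4.37 (median 4.14) in fasted LKO and from 3.49 to 3.95 (median 3.82) in fed LKO. It was 3.86, 3.62, 3.79, 3.70 and 3.92 in fasted WT and 3.80, 3.56, 3.74, 3.61 and 3.28 in fed WT. Fasted LKO replicates 1, 2, 3 and 6 lay above every animal of the other groups, while replicates 4 and 5 lay among them. Slc1a2 rose with fasting in LKO by 0.36 (SE 0.11, adjusted p = 0.0128; 0.31 without fed LKO replicate 3) and was higher in fasted LKO than in fasted WT by 0.33 (SE 0.12, adjusted p = 0.0333). The genotype call was lost on leaving out any 1 of fasted LKO replicates 1, 2 or 3 or fasted WT replicates 2, 3 or 4 (0.28 to 0.34, adjusted p = 0.0547 to 0.0819). With fasting in WT the difference was 0.18 (SE 0.13, adjusted p = 0.265), and the 2 fasting changes differed by 0.18 (SE 0.17, adjusted p = 0.514; 0.13 without fed LKO replicate 3).

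Rhbg encodes an ammonium transporter of the Rh family found in pericentral hepatocytes. It had levels of 1.69 to 2.53 (median 1.98) in fasted LKO against 1.95 to 3.05 (median 2.69) in fed LKO. In fasted WT the levels were 2.09, 2.13, 1.79, 1.38 and 2.15, all below the 2.20, 2.45, 2.40, 2.76 and 2.33 of fed WT. Rhbg fell with fasting by 0.59 in LKO (SE 0.18, adjusted p = 0.00813; -0.73 without fed LKO replicate 3) and by 0.52 in WT (SE 0.19, adjusted p = 0.0321). The WT call was lost without fasted WT replicate 3 or 4 or fed WT replicate 2 or 4 (-0.52 to -0.39, adjusted p = 0.0549 to 0.104). The fasting change differed between genotypes by -0.07 (SE 0.26, adjusted p = 0.898), and by -0.20 (adjusted p = 0.568) without fed LKO replicate 3.

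**Figure D2:**
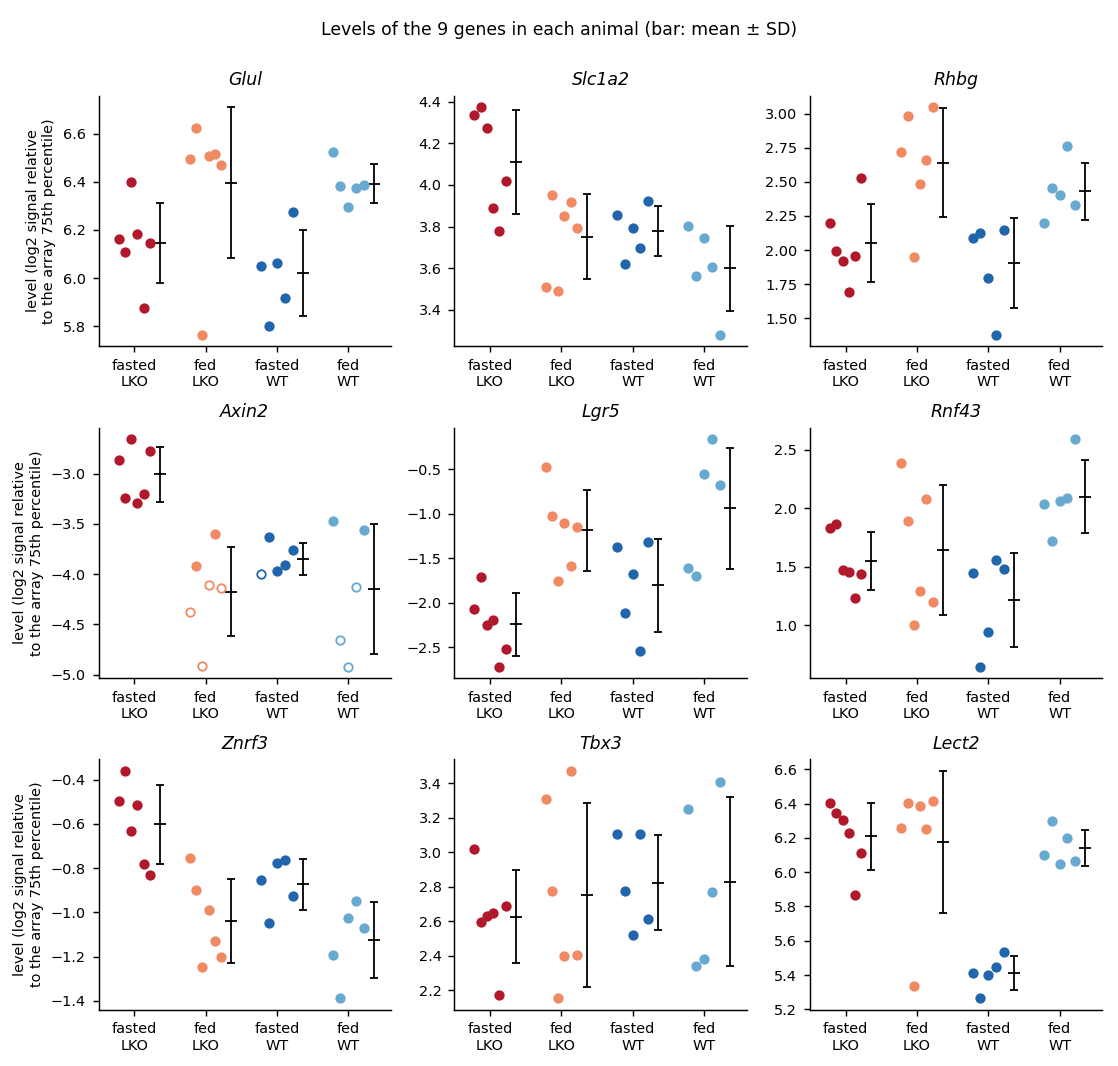
Level (log2 signal relative to the array's 75th percentile, y axes differ between panels) of each gene at its representative probe in every animal, by group, with the mean and SD as a black bar; open points were not well above background. Lect2 sits lower in all 5 fasted WT animals than in any fed WT or fasted LKO animal, and the lowest fed LKO point of Glul and of Lect2 is replicate 3.

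Among the feedback genes, Axin2 encodes a scaffold of the complex that degrades beta-catenin and is itself switched on by Wnt signalling. Its signal was near background. The probe was well above background in 6 of 6 fasted LKO, 2 of 6 fed LKO, 4 of 5 fasted WT and 2 of 5 fed WT animals. Levels were -3.29 to -2.65 (median -3.03) in fasted LKO and -4.91 to -3.60 (median -4.12) in fed LKO. They were -4.002, -3.63, -3.97, -3.91 and -3.76 in fasted WT and -3.47, -4.66, -4.92, -4.13 and -3.56 in fed WT. Every fasted LKO animal was above every animal of the other groups. Axin2 rose with fasting in LKO by 1.17 (SE 0.23, adjusted p = 0.000244; 1.02 without fed LKO replicate 3) and was higher in fasted LKO than in fasted WT by 0.85 (SE 0.24, adjusted p = 0.00835). Fasting in WT gave 0.30 (SE 0.25, adjusted p = 0.363). The fasting changes differed by 0.87 (SE 0.34, adjusted p = 0.0796), and by 0.73 (adjusted p = 0.108) without fed LKO replicate 3. Over all animals left out in turn this difference ranged from 0.71 to 1.07 (adjusted p = 0.026 to 0.152), and it passed the threshold without fed LKO replicate 5 or fed WT replicate 3. It also passed in the authors' deposited table (0.53, adjusted p = 0.0166) and with normexp background correction (0.33, adjusted p = 0.0175). The calls of Axin2 kept their direction in both, at smaller sizes: its rise in LKO was 0.55 in the authors' deposited table and 0.37 with normexp, and fasted LKO against fasted WT gave 0.50 and 0.30.

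Lgr5 encodes a receptor for R-spondins and marks hepatocytes close to the central vein. It was the member that fell most with the fast in LKO. Levels were -2.71 to -1.71 (median -2.22) in fasted LKO and -1.76 to -0.48 (median -1.13) in fed LKO, where only the highest fasted and the lowest fed value cross. They were -1.37, -2.11, -1.67, -2.54 and -1.31 in fasted WT and -1.60, -1.70, -0.55, -0.16 and -0.68 in fed WT, with overlap. The difference with fasting was -1.06 in LKO (SE 0.28, adjusted p = 0.00324; -1.17 without fed LKO replicate 3, -0.67 with normexp) and -0.86 in WT (SE 0.30, adjusted p = 0.0256). In WT the call was lost without fasted WT replicate 2 or 4 or fed WT replicate 3, 4 or 5 (-0.80 to -0.67, adjusted p = 0.0572 to 0.0829). Its other, dimmer probe read -0.77 in LKO (not called) and -1.64 in WT (adjusted p = 0.00944 over all probes), but 0 of 5 fasted WT animals were well above background there, so its WT difference has no exact size. The fasting changes of the brighter probe differed by -0.20 (SE 0.41, adjusted p = 0.797; -0.31 without fed LKO replicate 3).

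Rnf43 and Znrf3 encode the membrane ubiquitin ligases that clear Frizzled receptors and are in turn restrained by R-spondins with Lgr receptors. The pair moved differently. Rnf43 had levels of 1.23 to 1.87 (median 1.46) in fasted LKO and 1.00 to 2.39 (median 1.59) in fed LKO. It was at 1.45, 0.65, 0.94, 1.56 and 1.49 in fasted WT, all below 2.04, 1.72, 2.06, 2.09 and 2.59 in fed WT. It fell with fasting in WT by 0.88 (SE 0.24, adjusted p = 0.00543), a 1.85-fold lower signal, and differed by -0.09 (SE 0.22, adjusted p = 0.76; -0.22 without fed LKO replicate 3) in LKO. The difference between these changes was 0.79 (SE 0.33, adjusted p = 0.1), and 0.66 (adjusted p = 0.138) without fed LKO replicate 3. Over all animals left out in turn it ranged from 0.65 to 0.94 (adjusted p = 0.0383 to 0.181), and it passed the threshold without fed LKO replicate 1 alone. Its other probe was well above background in 8 of 22 animals and read 0.64 with fasting in WT (not called), so that the mean of both probes gave -0.12 (adjusted p = 0.771).

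Znrf3 had levels of -0.83 to -0.36 (median -0.57) in fasted LKO and -1.25 to -0.76 (median -1.06) in fed LKO. In fasted WT it read -0.86, -1.05, -0.78, -0.76 and -0.93, and in fed WT -1.19, -1.39, -1.03, -0.95 and -1.07. It rose with fasting in LKO by 0.44 (SE 0.10, adjusted p = 0.000812; 0.39 without fed LKO replicate 3) and was higher in fasted LKO than in fasted WT by 0.27 (SE 0.10, adjusted p = 0.0402). The genotype call was lost on leaving out any 1 of fasted LKO replicates 1 to 4 or fasted WT replicates 1, 2 or 5 (0.22 to 0.28, adjusted p = 0.0533 to 0.106). Fasting in WT gave 0.25 (SE 0.11, adjusted p = 0.0588), which was called without fed LKO replicate 1, fasted WT replicate 2 or fed WT replicate 4 (0.25 to 0.30, adjusted p = 0.0376 to 0.0443). Of its other probes, one was called higher with fasting in both genotypes (0.69 in LKO, adjusted p = 4.28e-06, and 0.32 in WT, adjusted p = 0.0149, over all probes), and the dimmest was called in neither (0.15 in LKO and -0.12 in WT). In fasted LKO and fasted WT the brighter other probe had means of -1.04 and -1.16, the dimmest -2.43 and -2.74. The array files give the representative probe a position of only 6 bases (mm9, chr11:5176332-5176337). The fasting changes at the representative probe differed by 0.18 (SE 0.14, adjusted p = 0.421), and by 0.14 without fed LKO replicate 3.

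**Figure D3:**
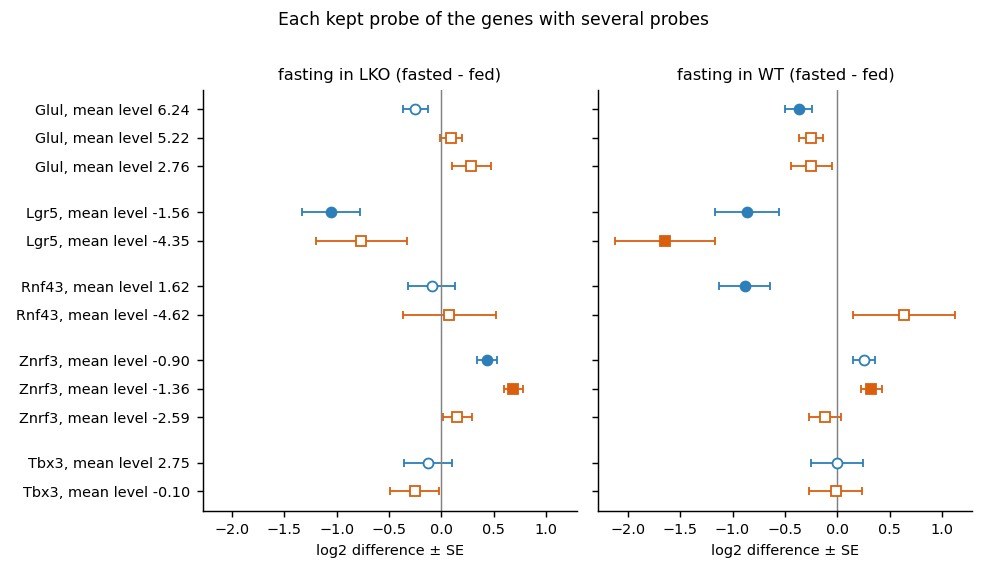
Log2 difference with fasting (x axis, SE bars) in LKO and in WT for each kept probe of the members with several kept probes; circles are the probe with the highest mean level, squares the others, and filled symbols had an adjusted p below 0.05 over all probes. The 3 Glul probes lie together below 0 in WT and on both sides of 0 in LKO, and the dim Rnf43 probe lies on the other side of 0 from the bright one in WT.

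Tbx3 encodes a T-box transcription factor that is a Wnt target in liver. Its levels were 2.17 to 3.02 (median 2.64) in fasted LKO, 2.15 to 3.47 (median 2.59) in fed LKO, 3.11, 2.78, 2.52, 3.11 and 2.61 in fasted WT and 3.25, 2.34, 2.38, 2.77 and 3.41 in fed WT. All groups overlapped, and no comparison called it. Fasting gave -0.13 in LKO (SE 0.23, adjusted p = 0.68; -0.25 without fed LKO replicate 3) and -0.01 in WT (SE 0.25, adjusted p = 0.989), and its other probe gave -0.25 and -0.01. The fasting changes differed by -0.12 (SE 0.34, adjusted p = 0.852; -0.24 without fed LKO replicate 3). With SEs of 0.23 to 0.25, changes of Tbx3 of that size, and also larger ones, could go uncalled with these animals. Glul with fasting in LKO, for example, was not called at -0.25 with an SE of 0.12.

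Lect2 encodes a secreted hepatocyte protein first known as a chemotactic factor for leukocytes, and its gene is a target of beta-catenin in liver. It had the clearest genotype difference of the 9. Levels were 5.87 to 6.40 (median 6.27) in fasted LKO and 5.34 to 6.42 (median 6.32) in fed LKO. They were 5.41, 5.26, 5.40, 5.45 and 5.54 in fasted WT, against 6.10, 6.30, 6.05, 6.20 and 6.07 in fed WT. The fasted WT animals lay below every fed WT and every fasted LKO animal. Lect2 fell with fasting in WT by 0.73 (SE 0.15, adjusted p = 0.000617), a 1.66-fold lower signal, and was 1.74-fold higher in fasted LKO than in fasted WT (0.80, SE 0.15, adjusted p = 0.000233). In LKO the fasting difference was 0.04 (SE 0.14, adjusted p = 0.86), or -0.13 (adjusted p = 0.185) without fed LKO replicate 3, whose 5.34 was far from the 6.25 to 6.42 of the other 5. The fasting changes differed between genotypes by 0.77 (SE 0.21, adjusted p = 0.0143), and by 0.60 (adjusted p = 0.00103) without that animal, and the term was between 0.51 and 1.12 within the 3 slides. In the fed state LKO and WT differed by 0.03 (SE 0.15, adjusted p = 0.95).

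As a description over the 22 animals, which share the 4 groups, the genes whose levels ran most like Lect2 were Olfr114 (Pearson's r = 0.94), Cyp1a2 (0.93) and Sdr9c7 (0.91). Cyp1a2, a pericentral cytochrome P450, had the same order of groups as Lect2 within the fasted state: 4.54 ± 0.20 (SD, n = 6) in fasted LKO and 3.21 ± 0.23 (n = 5) in fasted WT, beside 4.66 ± 0.45 (n = 6) in fed LKO and 4.69 ± 0.25 (n = 5) in fed WT. Glul ran most like Lrrk1 (0.91), Akr1c6 (0.90) and Akr1c20 (0.88), and its r with Lect2 was 0.75. All correlations here include fed LKO replicate 3, low for both Glul and Lect2, and are not given without that animal. Lrrk1 and Akr1c20 are not on any list used here, and Akr1c6 is among the other pericentral genes. The genes most like Rhbg were Ipo13, Acot11 and Gbp2b (0.87 to 0.89). Those most like Axin2 were Zfp280d, Itfg2 and Cnot4 (0.86 to 0.87), and those most like Lgr5 were Smtnl2, Rs5-8s1 and Cnot8 (0.86 to 0.87). For Tbx3 they were Ppnr, Dmxl1 and the Wnt target Sp5 (0.65 to 0.78), with Rnf43 at 0.61. Slc1a2 ran most like Arhgap5, Abcg4 and Aldh16a1 (0.80 to 0.84), Rnf43 most like Arl16, Zcchc14 and Smad3 (0.81 each), and Znrf3 most like Wdr81, Zmym5 and Ap4m1 (0.86 to 0.87). Among the members, Axin2 and Lgr5 ran oppositely (r = -0.58).

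The ligands of the central vein, Wnt2 and Wnt9b, were not called in any comparison. Wnt2, made by liver endothelial cells, differed by 0.24 in LKO (SE 0.20, adjusted p = 0.327) and 0.19 in WT (SE 0.21, adjusted p = 0.508) with fasting, and Wnt9b, the ligand of central vein endothelium, by 0.26 (SE 0.18, adjusted p = 0.246) and 0.07 (SE 0.20, adjusted p = 0.813). In fasted LKO against fasted WT they differed by 0.15 and 0.12, not called. Rspo3, the R-spondin of the central vein, rose with fasting in WT by 0.38 (SE 0.15, adjusted p = 0.0385). In LKO Rspo3 differed by 0.16 (adjusted p = 0.354), and the fasting changes differed by -0.23 (adjusted p = 0.477). The WT call of Rspo3 was lost under 3 of 10 other settings and on leaving out 6 of the 22 animals in turn (adjusted p up to 0.104). Wnt5a, a ligand that mostly acts without beta-catenin, fell with fasting in LKO (-1.30, SE 0.24, adjusted p = 0.000118), and its fasting changes differed by -1.14 (SE 0.35, adjusted p = 0.028). That last call was lost under 2 of the other settings (adjusted p = 0.0523 and 0.166) and on leaving out 4 of the animals in turn (adjusted p = 0.0505 to 0.0573). Of the 10 kept ligands and R-spondins, 0 rose and 3 fell with fasting in LKO, also at an unadjusted p below 0.05, and 2 rose and 1 fell in WT. Without fed LKO replicate 3 the counts in LKO were again 0 and 3.

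The Wnt receptors were counted next. Of the 12 kept receptors and coreceptors, 3 rose and 5 fell with fasting in LKO (2 and 5 without fed LKO replicate 3), and 2 rose and 1 fell in WT. The Frizzled receptor Fzd9 rose with fasting in LKO. It was well above background in 4 of 6 fasted and 0 of 6 fed LKO mice, so that its signal was at least 1.34-fold higher in fasted LKO (measured means -3.92 and -5.75, adjusted p = 6.31e-05). In WT, 1 of 5 fasted and 0 of 5 fed animals were well above background. Fzd9 thus passed the filter of at least 5 animals only through fasted mice, with none to spare. The adjusted p is therefore not independent of the filter. Leaving out any 1 mouse well above background removed Fzd9 from the fit. Its rise in LKO was called in the other 17 fits without 1 animal. These fits cannot test the mice that carry the call. The Frizzled receptor Fzd4 read 1.38 ± 0.16 (SD, n = 6) in fasted LKO and 2.07 ± 0.30 (n = 6) in fed LKO, beside 2.17 ± 0.13 (n = 5) in fasted WT and 2.17 ± 0.23 (n = 5) in fed WT. It fell with fasting in LKO by 0.69 (SE 0.12, adjusted p = 9.13e-05), was lower in fasted LKO than in fasted WT (-0.79, SE 0.13, adjusted p = 6.46e-05), and its fasting changes differed by -0.69 (SE 0.18, adjusted p = 0.0118). Fzd7 fell with fasting in LKO by 0.49 (SE 0.13) and was lower in fasted LKO than in fasted WT (-0.50, SE 0.13). The coreceptor Lrp6 fell by 0.20 with fasting in LKO (SE 0.07, adjusted p = 0.0206). That call was lost without 3 of the animals in turn (0.051 to 0.0589) and with only the groups compared in the fit (0.0534). With fasting in WT Lrp6 rose by 0.24 (SE 0.07, adjusted p = 0.0114). Its fasting changes differed by -0.44 (SE 0.10, adjusted p = 0.00451).

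Among 14 other Wnt target genes, all kept, 5 rose and 5 fell with fasting in LKO (5 and 5 of 13 kept without fed LKO replicate 3) and 2 rose and 4 fell in WT, so the list did not move 1 way. The cell cycle gene Ccnd1 fell in both, by 1.11 in LKO (SE 0.14) and 1.29 in WT (SE 0.15, adjusted p = 1.18e-06). Tcf7, a T cell factor, fell by 1.12 in WT (SE 0.15, adjusted p = 4.86e-06) and differed by -0.15 in LKO (adjusted p = 0.391), and the changes differed by 0.97 (SE 0.20, adjusted p = 0.0024). Jun, a subunit of the AP-1 factor, rose by 1.97 in LKO (SE 0.21) and by 0.93 in WT (SE 0.23). The growth regulator Myc rose by 1.42 in LKO (SE 0.39, adjusted p = 0.00446). Lgr4, the other R-spondin receptor of hepatocytes, was lower in fasted LKO than in fasted WT (-0.75, SE 0.07, adjusted p = 1.33e-07). Dkk4, a secreted Wnt antagonist that is itself a target, was lower with fasting in LKO (measured means -4.78 and -2.10, adjusted p = 0.00071). Only 2 of 6 fasted LKO mice, against 5 of 6 fed LKO mice, were well above background there, so no exact size is given. In WT Dkk4 was well above background in 0 of 5 fasted and 5 of 5 fed animals, at least 5.72-fold lower in fasted WT (measured means -5.72 and -1.90, adjusted p = 6.31e-05). For such bounds the dim group was set, array by array, at the lowest signal called well above background, or at the probe's own signal where that was higher.

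Of 19 kept genes for beta-catenin, its destruction complex and nuclear partners, 6 rose and 4 fell with fasting in LKO (7 and 4 without fed LKO replicate 3), and 5 rose and 7 fell in WT. Apc, a scaffold of the destruction complex, fell by 0.71 in LKO (SE 0.12) and 0.70 in WT (SE 0.13), and the corepressor Tle3 was higher in fasted LKO than in fasted WT by 0.95 (SE 0.16, adjusted p = 7.47e-05). With the mean of the kept probes Apc in LKO was -0.39, and the WT calls with fasting of Apc (-0.26, adjusted p = 0.0977) and Tle3 (-0.28 in place of -0.69, adjusted p = 0.053) were lost. Of the secreted inhibitors 5 of 12 were kept, and 1 rose and 0 fell with fasting in LKO, with and without fed LKO replicate 3 and at an unadjusted p below 0.05 too. Wif1, which binds Wnt ligands, was well above background in 6 of 6 fasted LKO and 0 of 5 fasted WT animals, at least 3.72-fold higher in fasted LKO (measured means -2.54 and -6.54, adjusted p = 2.54e-06). Dkk3 rose with fasting in WT by 0.81 (SE 0.15, adjusted p = 0.00024), and Sfrp5, a decoy for Frizzled ligands, rose by 0.66 in LKO (SE 0.18) and 1.01 in WT (SE 0.19). Sizes of the dimmer genes of these lists depended on how dim signal was handled. With normexp the change with fasting in LKO was -0.52 for Wnt5a, -1.07 for Dkk4, 0.36 for Fzd9 and 0.30 for Sfrp5, and that in WT was -0.44 for Tcf7, -1.29 for Dkk4 and 0.46 for Sfrp5. Wif1 in fasted LKO against fasted WT was 1.02 with normexp and 1.68 in the authors' deposited table, and Dkk4 with fasting in WT was -1.92 in the authors' deposited table. All of these were still called, but for Dkk4 in WT, Wif1 and, with normexp, Fzd9 in LKO they are smaller than the least fold given above (2.52, 1.89 and 0.42 on the log2 scale), which holds for the main values alone.

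The endothelial cells that supply Wnt ligands were followed through 14 markers. Their mean level was 1.17 to 1.48 in fasted LKO, 1.19 to 1.62 in fed LKO, 1.58 to 1.94 in fasted WT and 1.19 to 1.56 in fed WT, so that every fasted WT animal lay above every fasted LKO and every fed WT animal. In fasted LKO against fasted WT 13 of the 14 were lower and 1 was higher, with a median of -0.43 beside -0.03 over all genes. With fasting 9 rose and 0 fell in WT, also at an unadjusted p below 0.05, and 2 rose and 5 fell in LKO (2 and 9 without fed LKO replicate 3). Tek, an endothelial receptor, was lower in fasted LKO than in fasted WT (-1.10, SE 0.14, adjusted p = 4.54e-06), as was Clec4g, a lectin of sinusoidal endothelium (-0.95, SE 0.13). Lyve1, a hyaluronan receptor, rose with fasting by 0.89 in LKO (SE 0.13) and 1.65 in WT (SE 0.14). In LKO it was thus 1 of the 2 that rose, while Gpr182, another marker, fell by 0.60 (adjusted p = 1.36e-05). With the mean of the kept probes Gpr182 fell by 0.39 (adjusted p = 0.0195). Between fasted LKO and fasted WT, limma called 1 of 8 Kupffer cell and macrophage markers lower and 1 of 6 cholangiocyte markers higher in LKO. There it called 0 of 8 stellate cell markers and 0 of 6 lymphocyte and neutrophil markers. At an unadjusted p below 0.05 the stellate list had 1 lower and the lymphocyte and neutrophil list 0. Hepatocyte markers had 0 of 8 called, and 1 lower at the unadjusted threshold. The endothelial list moved in the same comparison, fasted LKO against fasted WT, as the calls of Slc1a2, Axin2, Znrf3, Lect2 and Fzd4, and its part in those results was not tested.

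Other pericentral genes moved in both directions. Of 30, all kept, 11 rose and 10 fell with fasting in LKO (median 0.13; 9 and 10, median 0.08, without fed LKO replicate 3), and 7 rose and 13 fell in WT (median -0.18). In fasted LKO against fasted WT 10 were higher and 4 lower (median 0.21), the sign of the members' median of 0.27. Cyp1a2 fell with fasting in WT by 1.48 (SE 0.19, adjusted p = 2.2e-06), was higher in fasted LKO than in fasted WT by 1.33 (SE 0.18, adjusted p = 6.45e-06), and its fasting changes differed by 1.36 (SE 0.25, adjusted p = 0.000837). Rgn, the calcium-binding enzyme regucalcin, fell in WT by 1.46 (SE 0.12). In LKO its mean was also lower in fasted (7.14) than in fed mice (8.36), without overlap. Cyp7a1, which starts the making of bile acids from cholesterol, had the opposite sign to Cyp1a2 between genotypes. It fell with fasting in LKO (-3.63, SE 0.40, adjusted p = 3.05e-07) and was lower in fasted LKO than in fasted WT (-2.63, SE 0.42). Cyp8b1, which directs bile acids to cholic acid, rose by 1.26 in LKO (SE 0.25) and 2.50 in WT (SE 0.28).

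Periportal genes mark the opposite end of the lobule. Of 25, all kept, 11 rose and 7 fell with fasting in LKO (median 0.11; 11 and 6, median 0.13, without fed LKO replicate 3), and 13 rose and 3 fell in WT (median 0.42). In fasted LKO against fasted WT 2 were higher and 7 lower (median -0.10). Apoa4, a lipid-binding apolipoprotein, rose by 2.63 in LKO (SE 0.14) and 3.29 in WT (SE 0.15). Cdh1, the adhesion protein E-cadherin, fell in WT by 1.52 (SE 0.17). Its mean in LKO was also lower in fasted (1.31) than in fed mice (2.13), without overlap. In the fed comparison 3 of the 25 were higher and 0 lower in LKO at the adjusted threshold, with 7 higher and 3 lower at an unadjusted p below 0.05. Apoa4 was among them, higher by 1.55 (SE 0.14), and the aldehyde dehydrogenase Aldh1b1 was another, higher by 0.91 (SE 0.19).

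**Figure D4:**
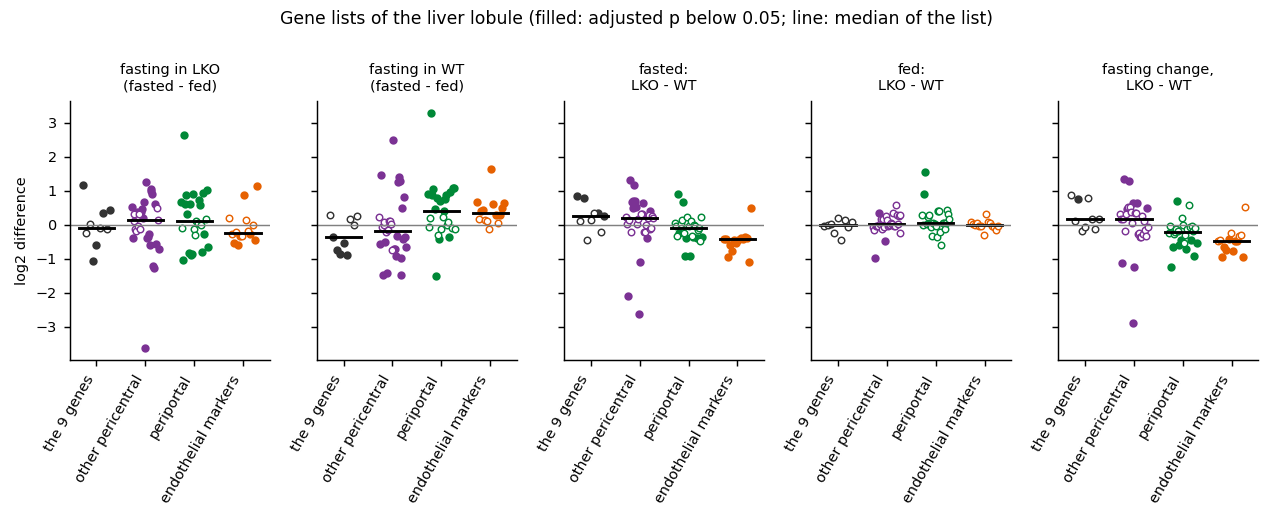
Log2 differences (y axis) of the 9 genes, 30 other pericentral genes, 25 periportal genes and 14 endothelial markers in the 5 comparisons, filled where the adjusted p was below 0.05, with the median of each list as a black line. The medians of the 9 genes and of the other pericentral genes lie above 0 and those of the periportal and endothelial lists below 0 in fasted LKO against fasted WT, and all 4 lie near 0 in the fed comparison.

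Of 25 kept genes of ammonia, glutamine and glutamate handling other than the members, 12 rose and 4 fell with fasting in LKO (14 and 4 without fed LKO replicate 3), and 15 rose and 3 fell in WT, with medians of 0.33 and 0.46. The cytosolic aspartate aminotransferase Got1 rose by 1.24 in LKO (SE 0.17) and 2.31 in WT (SE 0.19). The mitochondrial glutamate carrier Slc25a22 rose by 1.43 in LKO (SE 0.12) and 1.96 in WT (SE 0.13). Slc1a5, a glutamine transporter, was higher in fasted LKO than in fasted WT by 1.30 (SE 0.12), and the mitochondrial aminotransferase Got2 was lower (-0.86, SE 0.05). Gls2, the glutaminase of periportal hepatocytes, was higher in fed LKO than in fed WT by 0.41 (SE 0.09, adjusted p = 0.0132), a call lost with the mean of the kept probes (0.35, adjusted p = 0.0916) and with only the groups compared in the fit (adjusted p = 0.0707). Of this list 7 genes are also among the periportal or other pericentral genes. Glul, which makes glutamine, fell in WT, where 15 of the 25 rose.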

How the data were processed

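Liver RNA of 22 mice was read on 24 Agilent 1-colour arrays, with 62976 spots each. Per the file headers, Feature Extraction 10.10.1.1 gave the deposited intensity of each spot after background subtraction and detrending, with surrogate values for spots not above background, and flags (other) for spots well above background. The authors' deposited table holds log2 values of 31356 probes with near-equal distributions across arrays, for which the submitters' processing notes name limma; its normalization is not given in the sources used here. From the intensities, log2 levels were taken relative to each array's 75th percentile over non-control probes. Spots marked as outliers were left out and repeat spots of a probe and repeat arrays of an animal were averaged. A probe was kept if well above background in at least 5 of 22 animals (33007 of 56605), and a gene was read by its kept probe of highest mean level. limma 3.58.1 in R 4.3.3 fitted 1 mean per group over all 22 animals, with Benjamini-Hochberg adjustment over 17215 genes, or over all kept probes where single probes are compared. The fit was tested on simulated data.

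The labels give an animal number to each sample, so replicates are animals, and their number limits the precision. Signal close to background limits the precision of dim probes. The members and lists were chosen with earlier results of these data known. Named genes are the members, Ppara, any Wnt ligand or receptor, the 3 called genes of each list and comparison with the largest difference, and the 3 genes most like each member, and not all genes this rule allows are named, a choice made with their values in view. The lists overlap. Other normalizations, background correction, filters, probe summaries, blocks and left-out animals were tried.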

Additional observations from a re-analysis of the deposited data

Results flagged for a closer look

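Among 36 groups of values tested for an animal far from the rest, 2 had one, and in both it was fed LKO replicate 3. Its Glul level was 5.76, while its 5 group mates lay between 6.47 and 6.62. Its Lect2 level was 5.34, while theirs lay between 6.25 and 6.42. Chance alone marks about 0.05 of such groups.

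The fasting change of several genes differed between LKO and WT by the test of that difference (LKO change minus WT change, adjusted p below 0.05). It was higher in LKO for Lect2 (0.77), Tcf7 (0.97), Jun (1.04), Cyp1a2 (1.36), the cytochrome P450 Cyp2c38 (1.28) and Slc1a5 (0.75). It was lower in LKO for Wnt5a (-1.14), Fzd4 (-0.69), Lrp6 (-0.44), Dkk3 (-0.68), Cyp7a1 (-2.89), Aldh1b1 (-1.23), the serine dehydratase Sds (-0.91), Got1 (-1.07), Got2 (-0.75), Tek (-0.96), Clec4g (-0.94) and Lyve1 (-0.76). Of these, the calls for Wnt5a, Dkk3 and Sds were lost under some other settings.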

How the results depend on the processing

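Of the 15 calls made for the 9 genes, 9 kept their direction and call under each of the other settings and 10 on leaving out each animal in turn. Of the 77 called results of other named genes, 66 kept both under each of the other settings in which they were tested. The number of members called with fasting in WT was 3 with the mean of the kept probes, that in fasted LKO against WT was 2 with no filter on dim probes, and that for the difference of the fasting changes was 2 with normexp and 2 in the authors' deposited table. With only the groups compared in the fit, 361 genes were called in fed LKO against WT, in place of 692. Leaving out 1 animal gave 5 to 6 members called with fasting in LKO, 2 to 6 in WT (2 without fasted WT replicate 4), 2 to 4 in fasted LKO against WT, 0 to 0 in the fed comparison and 1 to 2 for the difference. Over all genes it gave 8135 to 8746, 7013 to 8087, 5704 to 7002, 484 to 876 and 2759 to 4009 calls. Lost calls with other settings were, for fasting in WT, Glul (mean of probes, adjusted p = 0.107), Rhbg (no filter, 0.056), Rnf43 (mean of probes) and Lgr5 (only the groups compared, 0.0638), and in fasted LKO against WT Slc1a2 (no filter, 0.0599) and Znrf3 (no filter, mean of probes or first array of repeated animals, 0.0552 to 0.0726). Results that were not called changed sign as follows. With the mean of the probes, Glul with fasting in LKO was 0.0438, the fed comparison gave -0.18 for Glul, 0.13 for Rnf43 and -0.0397 for Znrf3, and the difference of fasting changes was 0.34 for Lgr5. Tbx3 with fasting in WT was 0.00329 with slide as a block, and Glul in the fed comparison was -0.0187 with normexp and -0.0305 in the deposited table. With fasting in LKO, leaving out 1 animal gave -0.25 to 0.0182 for Tbx3, -0.13 to 0.10 for Lect2 and -0.22 to 0.0567 for Rnf43. With fasting in WT it gave -0.13 to 0.14 for Tbx3 and -0.0378 to 0.17 for Wnt9b. In fed LKO against WT it gave -0.0419 to 0.13 for Glul, -0.22 to 0.14 for Axin2, -0.22 to 0.0664 for Tbx3 and -0.0154 to 0.20 for Lect2. For the difference of fasting changes it gave -0.00552 to 0.18 for Glul, -0.20 to 0.0141 for Rhbg and -0.26 to 0.0239 for Tbx3. Replicate numbers did not pair the animals, since deviations of same-numbered animals correlated at -0.18 to 0.18. With the replicate block, the calls of Lgr5 with fasting in WT (adjusted p = 0.0535) and Slc1a2 in fasted LKO against WT (0.0618) were lost and Glul in the fed comparison was -0.00367. The cause of these changes was not tested. Axin2 and the dim probes of Lgr5 and Rnf43 lie near background, which limits them.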
